A study of Mus musculus with 6 samples.

Results

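Cohesin is a ring of protein that holds DNA strands together. The genes of its ring, of the subunits bound to the ring, of its loaders and of its release factors were followed in the hippocampus of mice with and without Prmt9, the gene for an arginine methyltransferase. The 10 genes were chosen by name (Smc1a, Smc3, Rad21, Stag1, Stag2, Nipbl, Mau2, Wapl, Pds5a and Pds5b) and all 10 were found and tested among 20315 genes with enough reads. They carry 74 of the annotated transcripts, of which 54 passed the filter on low counts. RNA was sequenced from 3 WT and 3 Prmt9 KO mice, all female, 2 weeks old, of strain B6J. The KO mice carry the deletion in the whole body: a floxed exon 5 of Prmt9 was removed with CMV-Cre, which is active in the germline, and the controls were littermates of the same sex. Whole hippocampus was used, so every value is an average over the cell types of the tissue, and fewer cells of a type cannot be told apart from less RNA per cell.

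SMC1A and SMC3 are long coiled-coil proteins with an ATPase head, and RAD21 closes the ring between the heads. One of a pair of related HEAT-repeat proteins, STAG1 or STAG2, sits on RAD21. NIPBL with MAU2 loads the ring on DNA and drives the extrusion of loops, PDS5A and PDS5B bind the loaded ring, and WAPL opens it. In dividing cells the ring holds sister chromatids together until anaphase, and in neurons, which no longer divide, it shapes chromatin loops. Mutations in several of these genes cause Cornelia de Lange syndrome, a developmental disorder with intellectual disability.

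The libraries held 194098391 to 286771677 estimated read counts. WT mouse 1 and KO mouse 1 stood apart from the other 4 mice: the first principal component held 81.7% of the variance, with scores of -50.33 and -35.31 for these 2 mice and 18.37 to 23.65 for the others. Prmt9 was at 11.78, 15.25 and 14.96 TPM (a level scaled to transcript length and to the total of each library) in the WT mice and at 3.93, 4.61 and 4.67 TPM in the KO mice, so the log2 fold change was -1.71 (standard error 0.10, edgeR quasi-likelihood test, adjusted p = 0.0327, above the limit of 0.01 used for calls). None of the 7 hippocampal excitatory neuron markers, such as Slc17a7 and Prox1, was at 0 in any mouse. Their summed level was 1740 and 1840 TPM in the mice numbered 1 and 2820 to 2990 TPM in the other 4. The 6 markers of cycling cells summed to 40.7 and 40.2 TPM in the mice numbered 1 against 13.5 to 16.3 TPM, and the 5 oligodendrocyte lineage markers to 1760 and 937 TPM against 6720 to 9590 TPM.

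No difference in level between the genotypes passed the test for any of the 10 cohesin genes. Their log2 fold changes, KO over WT, ran from -0.04 for Pds5b to 0.09 for Nipbl, with standard errors between 0.09 and 0.27. The smallest unadjusted p was 0.467, for Smc1a, and all 10 had an adjusted p of 1.0 by the edgeR quasi-likelihood test. A call needed an adjusted p below 0.01 together with a change of more than 1.5-fold. With these limits edgeR called 0 of 10 cohesin genes and 0 of all 20315 genes, a background of 0%, while 252 genes (1.24%) and 0 of the 10 had an unadjusted p below 0.05. DESeq2 called 4 genes, none of them among the 10. The median log2 fold change was 0.03 over the 10 genes and -0.01 over all genes tested.

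The SMC and RAD21 proteins form the ring itself. Smc1a (chrX:152016428-152062694, GRCm38, forward strand) was at 32.61, 40.91 and 41.26 TPM in WT and at 41.40, 43.57 and 41.59 TPM in KO. It was higher in every KO mouse than in every WT mouse, the only one of the 10 genes whose groups did not overlap in TPM, against a background of 6.67% of all genes. The difference between the highest WT mouse and the lowest KO mouse was small, and the exact two-sided permutation test gave its smallest possible p of 0.1. On CPM (counts scaled to library size, without length) the groups overlapped, at 77.0 ± 1.49 in WT and 80.9 ± 5.42 in KO (SD, n = 3 each), and the edgeR log2 fold change was 0.07 with a standard error of 0.09.

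Smc3 (chr19:53600398-53645833), the partner of Smc1a in the ring, was at 14.03, 25.56 and 26.25 TPM in WT and 20.68, 25.81 and 26.45 TPM in KO. Rad21 (chr15:51962240-51991747, reverse strand), the subunit that separase cleaves, was at 26.75, 42.15 and 42.13 TPM in WT and 34.47, 41.12 and 42.81 TPM in KO. In both genes mouse 1 was the lowest of each genotype and the groups overlapped. The log2 fold changes were 0.06 for Smc3 (standard error 0.15) and 0.03 for Rad21 (standard error 0.11).

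Of the pair of subunits that bind RAD21, Stag1 (chr9:100597798-100959375) was at 10.95, 20.37 and 21.12 TPM in WT and 16.60, 19.99 and 22.22 TPM in KO. Stag2 (chrX:42149317-42277185) was at 10.94, 23.71 and 21.77 TPM in WT and 15.13, 23.10 and 23.04 TPM in KO. The groups overlapped for both, and the log2 fold changes were 0.02 for Stag1 (standard error 0.10) and 0.05 for Stag2 (standard error 0.18).

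The loader Nipbl (chr15:8290617-8444463, reverse strand) had the lowest level of the 10 genes, at 5.83, 13.53 and 13.60 TPM in WT and 8.60, 13.64 and 13.93 TPM in KO. Its partner Mau2 (chr8:70016123-70042734, reverse strand) had the highest, at 39.33, 58.61 and 60.44 TPM in WT and 46.61, 58.14 and 57.31 TPM in KO. Neither pair of groups was apart, and the log2 fold changes were 0.09 for Nipbl (standard error 0.27, the widest of the 10) and 0.02 for Mau2 (standard error 0.13).

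Wapl (chr14:34673928-34747983), which releases cohesin from DNA, was at 12.07, 21.01 and 21.56 TPM in WT and 14.85, 22.86 and 21.54 TPM in KO. Pds5a (chr5:65605721-65698273, reverse strand) was at 26.63, 38.46 and 37.10 TPM in WT and 32.07, 38.11 and 37.00 TPM in KO. Pds5b (chr5:150673739-150810690) was at 21.58, 32.96 and 33.36 TPM in WT and 22.23, 31.95 and 31.44 TPM in KO. All 3 overlapped between the genotypes, and Pds5b was the only one of the 10 genes with a negative log2 fold change (-0.04, standard error 0.17).

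**Figure D1:**
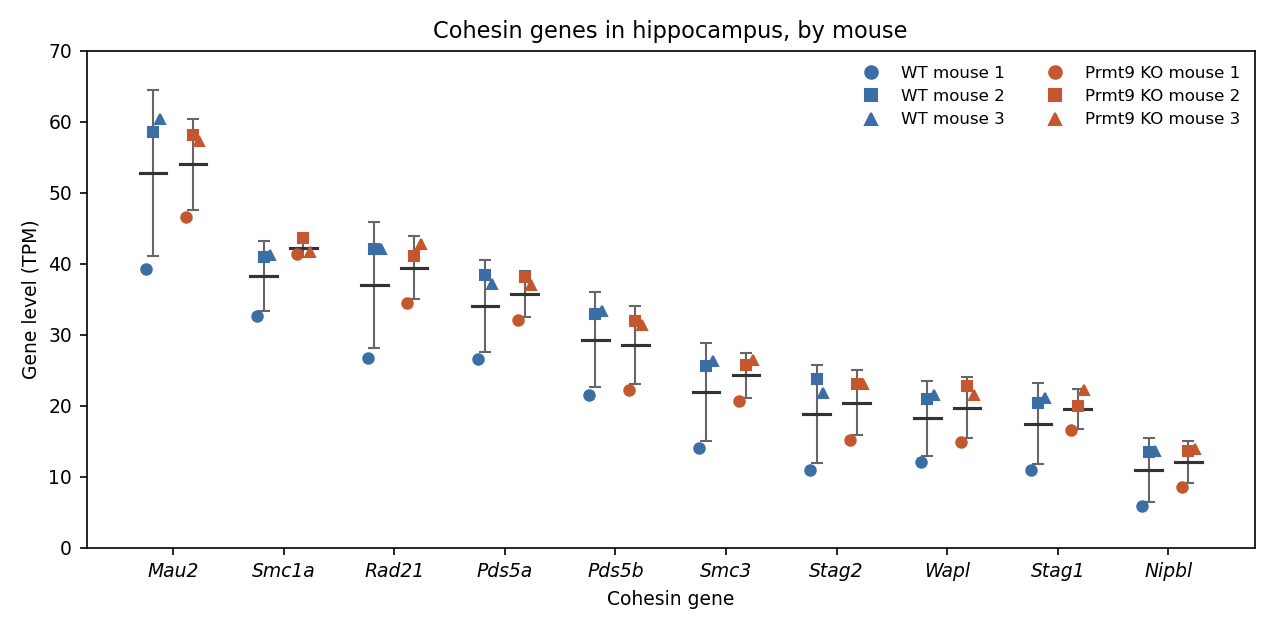
Level of the 10 cohesin genes (TPM, linear axis) in each WT (blue) and Prmt9 KO (orange) mouse, ordered by the WT mean; the symbol gives the mouse number, the horizontal line the group mean and the bars 1 SD (n = 3). Mouse 1 is the lowest of its genotype for all 10 genes, and Smc1a is the only gene with all KO mice above all WT mice.

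The spread within a genotype came mostly from mouse 1. All 10 genes were lower in WT mouse 1 than in the other 2 WT mice, at 43.0% (Nipbl) to 79.4% (Smc1a) of their mean, and all 10 were lower in KO mouse 1, at 62.4% (Nipbl) to 97.2% (Smc1a). In mice 2 and 3 alone the KO mean was 95.6% (Pds5b) to 104% of the WT mean. With the mice numbered 1 left out, a choice made after seeing the data, the standard errors shrank to between 0.032 and 0.048 and the log2 fold changes lay between -0.10 for Pds5b and 0.03 for Nipbl. Pds5b then had an unadjusted p of 0.0809 and an adjusted p of 0.358 by edgeR, the smallest adjusted p of any of the 10 genes in any setting tried. Of the 9 genes above 0 with all mice, 5 (Stag1, Smc3, Rad21, Mau2 and Pds5a) were below 0 without the mice numbered 1, by at most 0.02.

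**Figure D2:**
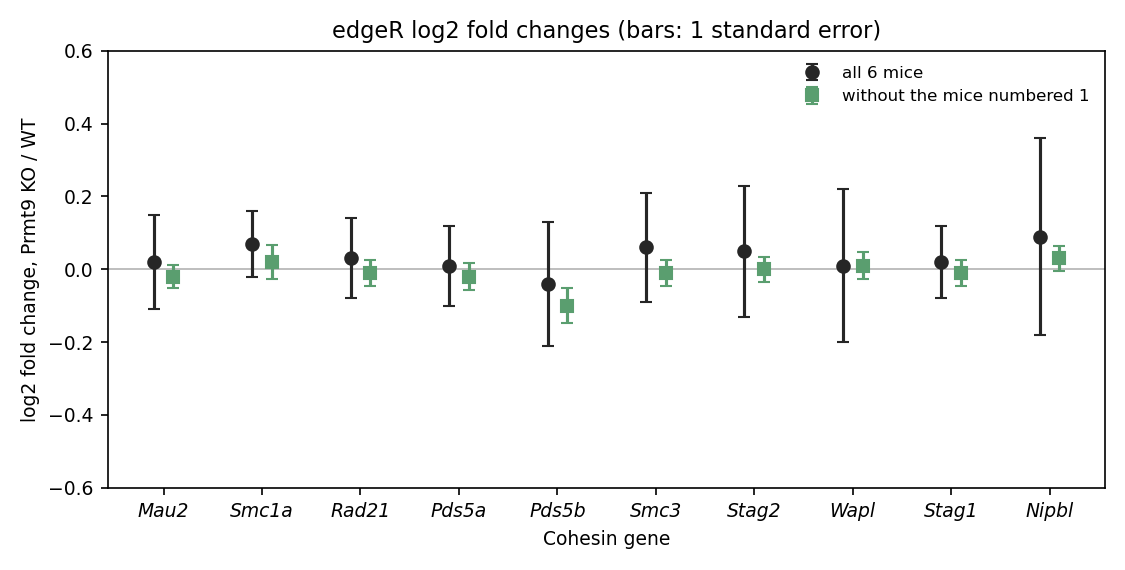
Log2 fold change of each cohesin gene, Prmt9 KO over WT, from edgeR with all 6 mice (black circles) and without the mice numbered 1 (green squares); bars are 1 standard error. No gene passed the threshold in either fit, and the bars with all mice are widest for Nipbl (0.27).

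Over all genes, the level in the mice numbered 1 went with gene length. Over 14170 genes, the median level in WT mouse 1 was 138% of that in the other 2 WT mice for genes with a mean transcript length under 1 kb and 52.9% for genes above 8 kb. In KO mouse 1 the medians were 119% and 72.1%, and WT mouse 2 against WT mouse 3 stayed between 99.1% and 102% in every length class. Nipbl, with a single annotated transcript of 9423 bases the longest of the 10 by mean transcript length, was the most reduced, and Stag2 (mean length 5080 bases) followed in WT mouse 1 at 48.1%. The 10 genes did not follow length throughout: Pds5b, the next longest (5804 bases), was at 65.1% in WT mouse 1, while the shorter Stag1 (4303 bases), Smc3 (4270 bases) and Wapl (4021 bases) were at 52.8%, 54.2% and 56.7%. The low level of the 10 genes in these 2 mice came with a length dependence over all genes, with the lower neuronal and oligodendrocyte marker levels and with higher cycling marker levels, and the part of each was not tested.

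**Figure D3:**
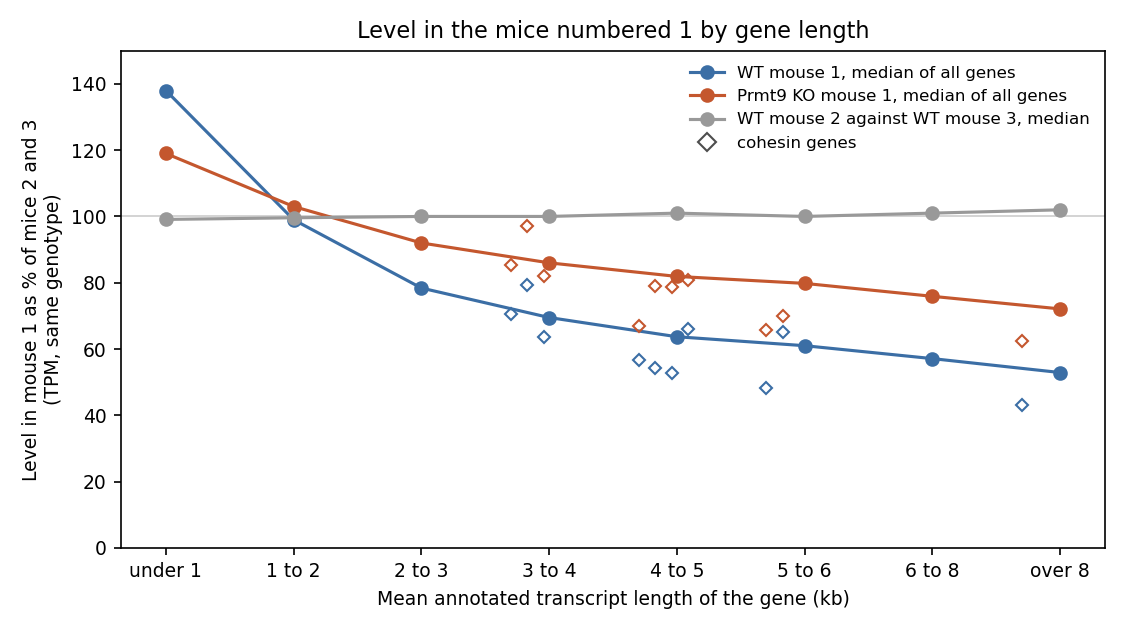
Level in mouse 1 as a percent of the mean of mice 2 and 3 of the same genotype (TPM), by the mean annotated length of the gene's transcripts; lines are medians over all genes at 1 TPM or more, grey compares WT mouse 2 with WT mouse 3, and open diamonds are the cohesin genes, spread sideways within their length class. The blue line falls from 138% to 52.9% and the cohesin genes lie between 43.0% and 97.2%.

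By WT mean the order of the levels was Mau2 (52.8 TPM), Smc1a (38.3), Rad21 (37.0), Pds5a (34.1), Pds5b (29.3), Smc3 (21.9), Stag2 (18.8), Wapl (18.2), Stag1 (17.5) and Nipbl (11). Neighbours kept this order in 6 of 6 mice except at 3 places: Smc1a was above Rad21 in 3 mice, Stag2 above Wapl in 5 and Wapl above Stag1 in 4. Much of the first place of Mau2 came from transcripts annotated as retaining an intron or as targets of nonsense-mediated decay, the pathway that removes mRNA with an early stop codon. Over protein-coding transcripts alone Rad21 was first with a WT mean of 37.0 TPM, Mau2 second with 30.9 TPM and Smc1a the third with 28.3 TPM, and Stag1 (14.2 TPM) was above Wapl (11.5 TPM).

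No ratio between related or partnered genes had groups that were apart. The ratio of Stag1 to Stag2, the alternative subunits of the ring, was 1.0, 0.859 and 0.970 in WT and 1.10, 0.865 and 0.964 in KO. The groups overlapped, and the mean log2 ratio differed by 0.04 (exact two-sided permutation test, p = 0.8, adjusted p = 0.9 over 5 ratios). The ratio of Smc1a to Smc3, whose proteins pair in the ring, was 2.32, 1.6 and 1.57 in WT and 2.00, 1.69 and 1.57 in KO. It counts all annotated transcripts. Over protein-coding transcripts alone the WT means were 28.3 TPM for Smc1a and 19.2 TPM for Smc3.

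Pds5a to Pds5b was 1.23, 1.17 and 1.11 in WT and 1.44, 1.19 and 1.18 in KO. Nipbl to Mau2, the members of the loader, was 0.148, 0.231 and 0.225 in WT and 0.185, 0.235 and 0.243 in KO. Wapl to Nipbl, release factor to loader, was 2.07, 1.55 and 1.59 in WT and 1.73, 1.68 and 1.55 in KO. The groups overlapped in all 5 ratios, with mean log2 differences between -0.06 and 0.15 and an adjusted p of 0.9 each (exact permutation test, which cannot go below 0.1 with 3 mice against 3).

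Within Stag2, the share of transcripts with exon 31 was higher in every KO mouse. This exon (chrX:42266366-42266476) lies between exon 30 (ending at 42266275) and exon 32 (starting at 42269381) of Stag2-203, a transcript of 34 exons, and it is the one that the study's RT-PCR primers flank. It is shown with the last 30 bases of exon 30 and the first 30 of exon 32, capitals marking exon 31, above the joined form that skips it, whose junction falls after base 30, and the primers.
Stag2 exon 31 with flanks: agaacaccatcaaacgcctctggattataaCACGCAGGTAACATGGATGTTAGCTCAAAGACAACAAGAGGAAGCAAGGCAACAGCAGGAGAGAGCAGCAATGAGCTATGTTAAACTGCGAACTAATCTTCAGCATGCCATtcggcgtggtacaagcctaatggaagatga
Stag2 exons 30 and 32 joined: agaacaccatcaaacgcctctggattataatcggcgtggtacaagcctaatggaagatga
Stag2 forward primer: ctgaagaaagcagtagcagtg
Stag2 reverse primer: caagtctatatccatggtgtca

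The forward primer matched chrX:42266086-42266106 in exon 30 and the reverse primer the opposite strand of chrX:42269486-42269507 in exon 32. They span 428 bases with exon 31 and 317 bases without it. The exon adds 37 codons' length to the reading frame, which it neither shifts nor stops, since 0 of the 36 whole codons inside it are stop codons. Stag2-203 was the only annotated transcript that holds the exon between these neighbours, and Stag2-201 and Stag2-202 skip it.

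The inclusion level (PSI, the TPM of transcripts with the exon over the TPM of those with and without it) was 0.372, 0.433 and 0.447 in WT and 0.60, 0.517 and 0.489 in KO. All KO mice were above all WT mice, with means of 0.417 ± 0.0398 and 0.535 ± 0.0581 (SD, n = 3 each; exact two-sided permutation test, p = 0.1, the smallest possible). By pairs of equal number the difference was 0.229 for mice 1, 0.0839 for mice 2 and 0.0421 for mice 3, so mouse 1 contributed most.

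In limma over 24105 events the unadjusted p was 0.0264 and the adjusted p was 1.0. With a limit of 0.01 on the adjusted p and of 0.05 on the PSI difference, limma called 0 of these events, a background of 0%, while 772 (3.20%) had an unadjusted p below 0.05 and 2574 (10.7%) had groups that did not overlap. The study called its events from reads that support each form, a measure unlike the PSI from transcript TPM used here. The absence of calls here is therefore not a test of the study's events. Those events came from RNA-seq of the same mice, so a shared direction is not independent of them. The study named Stag2 as a target of splicing regulated by PRMT9. Its minigene had more exon inclusion in PRMT9 KO cells, like the pattern it reported in hippocampus, and also with methylation-deficient SF3B2. In KO hippocampus it also reported more SF3B2 bound at the upstream anchoring site of Stag2. Without the mice numbered 1 the PSI difference was 0.0630 (limma, unadjusted p = 0.0345), and with a replicate block the unadjusted p was 0.0602.

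Transcripts with exon 31 were at 3.74, 7.97 and 8.12 TPM in WT and 7.88, 9.40 and 8.96 TPM in KO. Those without it were at 6.31, 10.4 and 10.1 TPM in WT and 5.24, 8.78 and 9.37 TPM in KO. Each KO mouse had more of the first and less of the second than the WT mouse of the same number, but the groups overlapped on both sides. For the level of Stag2-203 the log2 fold change was 0.39 and its standard error 0.19 (edgeR, adjusted p = 1.0). Of the transcripts that skip the exon, Stag2-202 was found in WT mouse 1 alone, at 2.14 TPM. The level without exon 31 in that mouse thus rested partly on a transcript at or near 0 in the other 5. If the TPM of Stag2-202 were dropped, the PSI of WT mouse 1 would be higher and the difference for mice 1 smaller. If its reads were assigned to the other transcript that skips the exon, this need not hold. Neither case was tested.

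Stag1 has an exon of the same number, length and reading phase, exon 31 of Stag1-206 (chr9:100953486-100953596), which lets the paralogs be set side by side. In the sequence capitals mark the 51 bases (45.9% of the exon) that equal Stag2 exon 31 at the same position. The best other window of that length in Stag1-206 shared 46 bases.
Stag1 exon 31: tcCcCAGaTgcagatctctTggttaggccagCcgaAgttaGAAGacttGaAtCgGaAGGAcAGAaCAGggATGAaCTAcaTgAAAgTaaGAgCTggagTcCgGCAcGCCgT
This exon was included at 0.976, 0.929 and 0.940 in WT and 0.955, 0.962 and 0.935 in KO. Its inclusion was near complete in all 6 mice, and the groups overlapped (limma, unadjusted p = 0.958).

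Of 27 annotated splicing events in the cohesin genes, 18 in 5 genes were tested: 6 skipped exons, 5 retained introns, 4 alternative 5′ and 3 alternative 3′ splice sites. Stag2 exon 31 was the only one with an unadjusted p below 0.05 and the only one with groups that did not overlap. The next smallest unadjusted p was 0.224, for an intron of 944 bases in Mau2 (chr8:70022670-70023613) whose retention was 0.369, 0.368 and 0.378 in WT and 0.316, 0.325 and 0.370 in KO. An alternative 3′ splice site of 18 bases in Wapl followed the mouse number instead of the genotype: inclusion was 0.989 and 0.914 in the mice numbered 1 and 0.675 to 0.720 in the other 4.

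Within Smc1a, a minor transcript was estimated above 0 counts in the KO mice alone. Smc1a-206, annotated as a target of nonsense-mediated decay, joins exon 1 (ending at 152016640) to exon 4 (152026238 to 152026441) and so lacks exon 2 of 189 bases (chrX:152022746-152022934) and exon 3 of 113 bases (chrX:152023039-152023151). The 302 bases left out are not a multiple of 3, and the reading frame that opens at the ATG reaches a TGA after 54 codons, in exon 4 at 152026293, with 8 more exons downstream. The junctions are shown as 25 bases on each side, capitals marking the downstream exon, so that the last line, found only in Smc1a-206, can be read against the others.
Smc1a exon 1 to exon 2: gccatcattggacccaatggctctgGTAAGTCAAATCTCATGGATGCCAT
Smc1a exon 3 to exon 4: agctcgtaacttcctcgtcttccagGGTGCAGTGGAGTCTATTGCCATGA
Smc1a exon 1 to exon 4: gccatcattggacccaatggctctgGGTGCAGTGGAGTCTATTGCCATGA

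Smc1a-206 had estimated counts of 0.0, 0.0 and 0.0 in WT and 17.2, 86.9 and 20.7 in KO. These were 0.0897%, 0.37% and 0.107% of the Smc1a counts in KO, while a count of 0 in WT allows a share of up to 0.0214%, 0.0156% and 0.017% (3 counts of the gene's total per mouse, covering counting error only). The levels in KO were 0.0789, 0.337 and 0.0899 TPM, so that at most 0.774% of the Smc1a level came from it, and KO mouse 2 held most of the reads.

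Transcript usage was tested with edgeR, which compares the change of each transcript with that of its gene. Smc1a was 1 of 22 genes called at an adjusted p below 0.01 among 13560 genes, a background of 0.162%, and its adjusted p was 0.00817. This call rested on Smc1a-206 alone: the other 4 Smc1a transcripts tested had unadjusted p-values of 0.72 or more. Smc1a-206 passed the filter on low counts only through the KO mice, so the call is given as a description of these counts and not as support for a difference. With at least 10 counts required in every mouse, which leaves Smc1a-206 out, the adjusted p of Smc1a was 1.0. Counted to whole reads, 52 of 75661 transcripts (0.0687%) were at 0 in every WT mouse and above 0 in every KO mouse, and Smc1a-206 was the only one in a cohesin gene. The reverse held for 13 (0.0172%), none in a cohesin gene. WT mouse 1 had 37.37% of all transcripts at 0, against 22.75% to 24.76% in the other 5 mice. The part of this in a count of 0 in every WT mouse was not tested.

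The call for Smc1a held in 4 of 12 other settings and was lost in 8. With a replicate block the adjusted p was 0.0119, with limma on voom weights it was 0.28, and without KO mouse 2 it was 0.344 (edgeR). It also left the threshold without WT mouse 2 (adjusted p = 0.175), WT mouse 3 (0.134), KO mouse 1 (0.0226) or KO mouse 3 (0.0536). An antisense pseudogene, Gm15267, overlaps Smc1a in the annotation, and whether kallisto used the strand is not given in the sources used here.

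**Figure D4:**
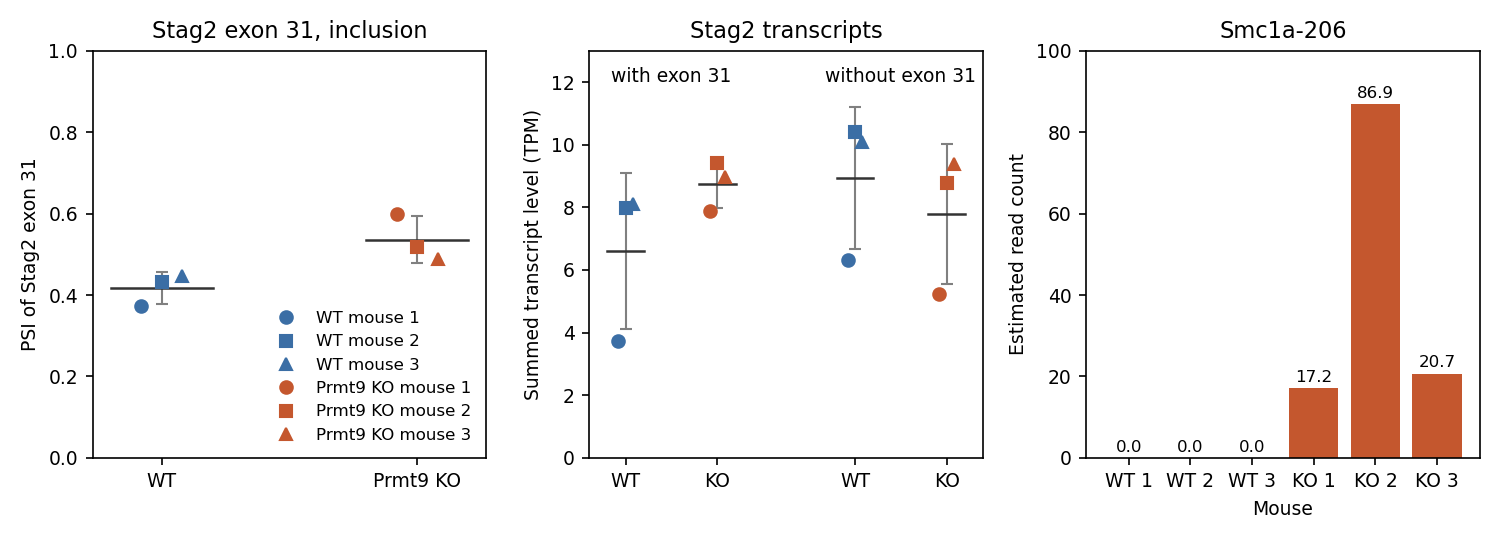
Left, PSI of Stag2 exon 31 by mouse; middle, summed TPM of Stag2 transcripts with and without the exon; right, estimated read counts of Smc1a-206. Symbols give the mouse number, lines the group mean and bars 1 SD (n = 3); the PSI groups do not overlap, the TPM groups do, and Smc1a-206 has 0.0 counts in all WT mice and 17.2 to 86.9 in KO.

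Nipbl has a single annotated transcript and so no shares to compare. Of the 73 transcripts of the other 9 genes, 35 made up at least 5% of their gene's TPM in the mean of either genotype, and 20 of these are protein-coding. The shares of 5 did not overlap between the genotypes (14.3% of the 35, against 9.44% of all such transcripts of genes that passed the filter on low counts), 3 higher in every KO mouse (4.97% of all) and 2 lower in every KO mouse (4.47% of all). Stag2-203 was one, at 34.1%, 33.6% and 37.3% in WT and 52.1%, 40.7% and 38.9% in KO. Mau2-202, a protein-coding transcript, was at 8.73%, 15.1% and 13.8% in WT and 15.5%, 16.6% and 21.4% in KO.

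In Smc3 the protein-coding transcript Smc3-201 was at 90.1%, 86.5% and 87.0% in WT and 85.2%, 85.6% and 84.3% in KO. The intron-retaining Smc3-203, of 695 bases, was at 8.66%, 10.4% and 9.32% in WT and 11.6%, 10.7% and 13.5% in KO. As a share of estimated counts in place of TPM, the mean differences for these 2 fell from -2.84 and 2.5 percentage points to -0.401 and 0.370.

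The intron-retaining Pds5a-210 was at 7.35%, 6.26% and 6.12% in WT and 5.59%, 5.11% and 5.97% in KO. For each of the 5, the exact two-sided permutation test gave p = 0.1, the smallest possible. Of the 54 transcripts tested for level by edgeR, 0 were called, as were 0 of all 75661 (0%), and 1 of the 54 had an unadjusted p below 0.05 (Smc1a-206, which entered the test through its KO counts alone), against 1.61% of all transcripts. DESeq2 called 94 transcripts of all genes.

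Several transcripts stood apart in WT mouse 1 alone or in both mice numbered 1. Stag1-206 was 71.1% of Stag1 in WT mouse 1 and 34.9% to 43.6% in the other 5 mice. Stag2-202 was 19.6% of Stag2 in WT mouse 1 and near 0 elsewhere, and the intron-retaining Pds5b-204 was 25.7% in WT mouse 1 and 1.12% to 4.01% elsewhere. Pds5b had an unadjusted usage p of 0.0342 (edgeR, adjusted p = 1.0), with the lowest p among its transcripts for Pds5b-204.

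Other transcripts stood apart in both mice numbered 1. Wapl-202 was 0.527% and 4.14% of Wapl in the mice numbered 1 and 18.1% to 21.3% in the others. Pds5a-201 was 27.5% and 30% in the mice numbered 1 and 41.5% to 43.1% in the others, while the shorter Pds5a-212 was 39.3% and 39.8% against 28.8% to 29.9%. Mau2-208, annotated as a target of nonsense-mediated decay, was 29.0% and 26.0% in the mice numbered 1 and 16.7% to 19.9% in the others. These shares moved with the same mouse number as the marker levels and the length dependence, and their part was not tested.

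**Figure D5:**
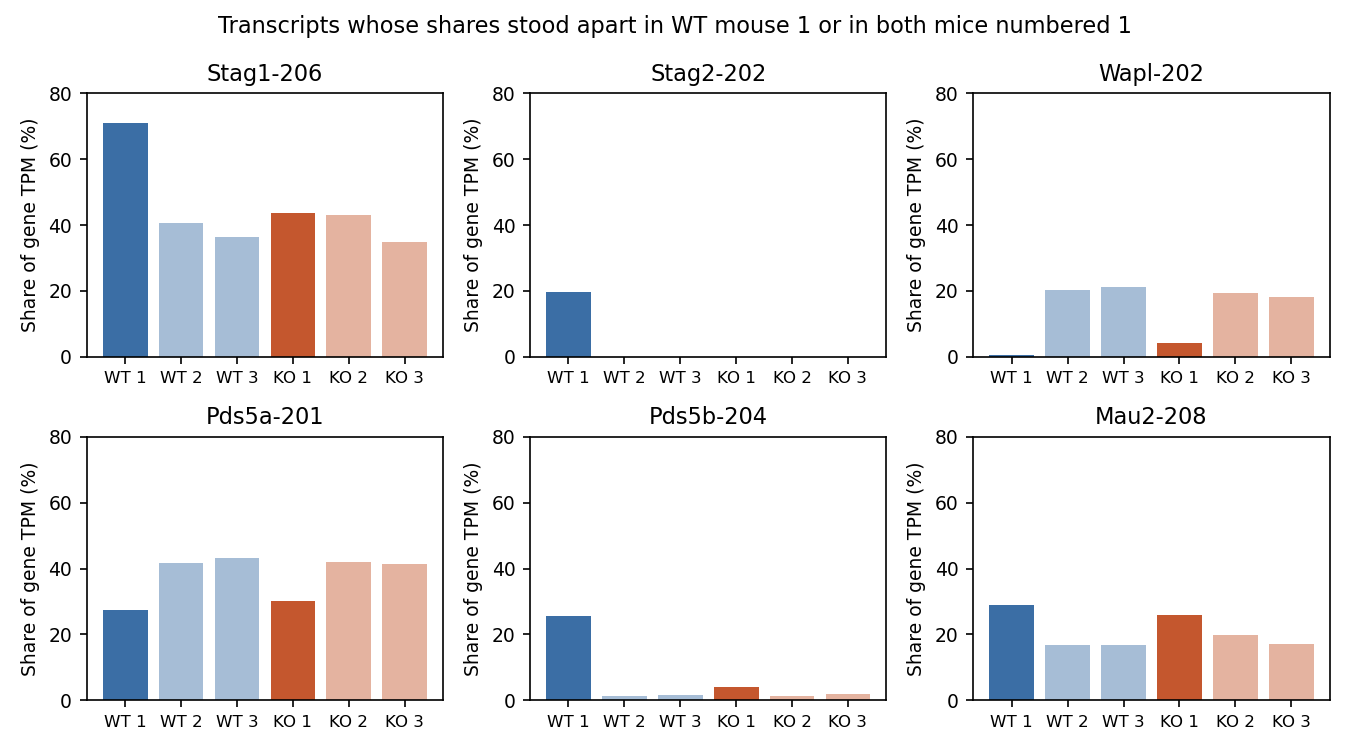
Share of 6 transcripts in the TPM of their gene (%) by mouse, WT in blue and Prmt9 KO in orange, with the mice numbered 1 in full colour. Stag1-206, Stag2-202 and Pds5b-204 are highest in WT mouse 1 (71.1%, 19.6% and 25.7%), and Wapl-202 and Pds5a-201 are lowest in the mice numbered 1.

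The other named transcripts overlapped between the genotypes. In Stag1, Stag1-214 made up 18.0% to 27.0%, and Stag1-207 and Stag1-215 were at 0% in WT mouse 1 and at 8.17% to 18.0% and 12.2% to 14.4% in the other mice. In Stag2, Stag2-201 made up 34.7% to 46.2%, and Stag2-207 and Stag2-208 between 1.6% and 9.25%. In Smc1a, the protein-coding Smc1a-201 made up 70.5% to 76.0%, with Smc1a-202 at 15.7% to 20.3% and Smc1a-205 at 6.32% to 9.13%.

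Rad21 was almost all Rad21-201, at 99.3% or more. In Mau2, Mau2-201 made up 30.3% to 38.2%, Mau2-205 15.8% to 22.3% and Mau2-204 up to 13.8%. In Wapl, Wapl-201 made up 37.3% to 49.1%, and Wapl-203 and Wapl-206 between 14.6% and 27.1%. The levels of Mau2 and Wapl were thus spread over several transcripts, unlike those of Rad21 and Nipbl. In Pds5a, Pds5a-202 and Pds5a-205 made up 4.29% to 9.01%. In Pds5b, Pds5b-201 made up 35.4% to 51.9%, Pds5b-208 16.5% to 36.4%, Pds5b-207 8.30% to 14.5%, Pds5b-203 4.79% to 7.69% and Pds5b-202 3.45% to 5.61%. The remaining 38 transcripts, Smc1a-206 among them, were below 5%, and 4 of them were at 0 in every mouse.

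For the genes that regulate cohesin, too, no difference in level passed the test. Of 15 regulators tested, which include the acetyltransferases Esco1 and Esco2, the deacetylase Hdac8 and the boundary factor Ctcf, 0 were called and 0 had an unadjusted p below 0.05 by edgeR. Their median log2 fold change was -0.02, from -0.29 for Cdca5, the gene for sororin, to 0.64 for Esco2 (standard errors 0.86 and 0.47). Both are low, at 0.325 to 1.56 TPM for Cdca5 and 0.746 to 1.18 TPM for Esco2. Cdca5 followed the cycling markers, with 1.56 and 1.38 TPM in the mice numbered 1 and at most 0.429 TPM in the others.

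Of 7 genes of meiosis, among them cohesin subunits such as Rec8 and Stag3, 5 passed the filter. Their median was 0.22, between -0.07 for Rec8 and 0.39 for Stag3. The related SMC complexes were also without a call: the 8 condensin genes had a median of 0.09, from -0.13 for Ncaph2 to 0.36 for Ncapg, and the 9 genes of the SMC5/6 complex a median of 0.04, from -0.32 for Nsmce1 to 0.34 for Eid3. No gene of these 3 lists had an unadjusted p below 0.05 (edgeR), against 1.24% of all genes.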

How the data were processed

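Poly(A)+ RNA was sequenced from hippocampus of 3 WT and 3 Prmt9 KO mice (TruSeq Stranded mRNA, 100 bp paired-end). The authors quantified reads with kallisto (0.46.0 in the submitters' processing notes) and deposited, per transcript, estimated counts and TPM, with TPM also summed per gene. TPM are relative to the total of each mouse, so a change of total RNA cannot be seen. Junction reads were not analysed here.

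The cohesin genes and the lists were chosen with earlier results of these data known. Transcripts were matched to GENCODE M21 (GRCm38) by identifier: 116622 of 118783 matched, and the rest held at most 0.814% of counts. The 10 genes' summed TPM equalled the deposited gene TPM within 0.001. Estimated counts were rounded and tested with edgeR 4.0.16 (TMM, filterByExpr, glmQLFTest, diffSpliceDGE with Simes p-values). Splicing events were built from annotated exons, and log2((including TPM + 0.1)/(excluding TPM + 0.1)) was tested with limma 3.58.1 where both forms together reached 1 TPM in each mouse and mean PSI lay between 0.05 and 0.95. All p-values were adjusted by Benjamini-Hochberg over the whole table. Single values were compared with exact two-sided permutation tests of 3 mice against 3. The scripts were tested on simulated data.

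All 10 genes were named, their transcripts with a mean share of at least 5%, the Stag2 exon flanked by primers, events with an unadjusted p below 0.05, and of each list the highest and lowest log2 fold change. Smc1a-206, the Mau2 intron, the Wapl splice site and the Stag1 exon were chosen after their values were seen. WT and KO mice of the same number deviated together from their group means (r = 0.808, 0.743 and 0.704 over 20315 genes). Mice 2 and 3 were not told apart from each other (r = 0.758 and 0.674 across these numbers). The numbers were treated as pairs only in the replicate block and in differences given by pair. The main fits and the permutation tests took no account of the pairs. Alternatives were DESeq2 1.42.0, other size factors, no filter, a replicate block, a term for the mice numbered 1, limma on log2(TPM + 1) or log2(TPM + 0.1), other usage tests and event filters, estimated counts or protein-coding transcripts alone for shares and ratios, and leaving out each mouse. Sequences came from the GENCODE M21 transcripts and the study's primer list.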

Additional observations from a re-analysis of the deposited data

How the results depend on the processing

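None of the 10 genes was called for its level in any of 14 other settings, and Smc1a kept its direction in all of them. The other 9 changed sign in at least 1, at sizes within their errors. Leaving out 1 mouse at a time gave log2 fold changes from -0.04 to 0.06 for Stag1, -0.10 to 0.16 for Stag2, -0.07 to 0.15 for Smc3, -0.05 to 0.08 for Rad21, -0.13 to 0.26 for Nipbl, -0.08 to 0.09 for Mau2, -0.14 to 0.17 for Wapl, -0.06 to 0.05 for Pds5a and -0.18 to 0.05 for Pds5b. Without the mice numbered 1 they were -0.01 for Stag1 and Smc3, -0.006 for Rad21 and -0.02 for Mau2 and Pds5a.

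Over all genes, DESeq2 called 4 in place of 0, and the term for the mice numbered 1 and the fit without them called 1 each. DESeq2 called 94 transcripts in place of 0. For usage, 22 genes became 1 with at least 10 counts in every mouse (Smc1a-206 then left out), 52 with the term for the mice numbered 1, 12 with the gene-level F test, 3 with limma, 12 with the replicate block, 230 without the mice numbered 1 and 6 to 139 with 1 mouse left out (6 without KO mouse 3, 139 without WT mouse 1). Cohesin genes called for usage fell from 1 to 0 with at least 10 counts, with limma, with the replicate block, and ranged from 0 to 1 with 1 mouse left out. Event calls stayed at 0.

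The 5 shares without overlap became 2 over protein-coding transcripts alone, 18 without the mice numbered 1 (2 against 2) and 5 to 13 with 1 mouse left out. With the replicate block, 11 of 35 shares and 2 of 5 ratios moved the same way in all 3 pairs. Each of these had p = 0.25 by an exact sign-flip test, the smallest possible with 3 pairs. For 2 mice against 2, groups that are apart give p = 0.333 by the exact permutation test, also the smallest possible. Counts over the transcripts of all genes were not made in these settings, so these counts are not read as a result. Ratios without overlap rose from 0 to 2 without the mice numbered 1 and ranged from 0 to 1 with 1 mouse left out. The causes were not tested. The Stag2 exon 31 difference stayed positive, at 0.0630 to 0.142 over 11 settings (limma, unadjusted p 0.02 to 0.0663). The replicate block changed no other call. With 3 mice a group, 1 mouse sets much of each error.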
